A study of Arabidopsis thaliana with 5 samples.

Results

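The data describe 4 of the 13356 genes named on the ATH1 array, each by its log2 signal on every array: AT5G62730 and AT2G40460, 2 transporters of the NRT1/PTR family, *ASPGB1* (AT3G16150), which encodes an asparaginase, and AT1G25550, a MYB-type regulator related to nitrate. They were chosen as nitrogen genes whose ratio between the genotypes was already known from these arrays. Their levels are therefore given as a description, with no test. The arrays compared floral buds of the *ask1* mutant (*ask1*-/-, 3 arrays) with those of the wild type (L*er*, 2 arrays), and the mutation was carried in the L*er* background. ASK1 is an Arabidopsis SKP1 protein, the subunit of SCF ubiquitin ligases that holds the F-box protein. All plants grew in soil for about 5 to 6 weeks, and clusters of unopened buds were taken. Mutants were recognised by eye in segregating families, from their stature and from petal and anther defects. Whether an array holds the buds of 1 plant or of several is not given in the sources used here. The question behind the comparison was which floral transcripts change when ASK1 is lost.

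NRT1/PTR proteins are proton-coupled carriers of the plasma membrane and of internal membranes. Members of the family carry nitrate, small peptides, hormones or glucosinolates, and many have no known substrate. Asparagine is one of the main forms in which plants move nitrogen to growing organs. Asparaginases split it into aspartate and ammonium, which the receiving tissue can assimilate again. MYB-type regulators of nitrate responses are nuclear proteins that tune the genes for nitrate uptake and use to the supply of nitrogen.

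Of the 4 genes, 3 had higher mean signals in *ask1* and 1 had a lower mean signal. The log2 ratio, the mean of the *ask1* arrays minus that of the L*er* arrays, was 2.44 for AT5G62730, 1.52 for *ASPGB1*, 1.16 for AT2G40460 and -1.39 for AT1G25550. All 4 thus differed 2-fold or more, a size that 1.06% of the 22589 genes and unnamed probe sets reached in either direction. The arrays of the 2 genotypes did not overlap in 3 of the 4 genes, against 20.9% of all genes and unnamed probe sets (10.2% with *ask1* higher and 10.7% with *ask1* lower). Both counts follow from the way the genes were chosen. Among the named genes, AT5G62730 ranked 2 from the top by its ratio, *ASPGB1* ranked 12 and AT2G40460 ranked 25, while AT1G25550 ranked 22 from the bottom. The genes lie on 4 different chromosomes. Each was measured by 1 probe set, so no second probe set was there to compare with it.

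**Figure D1:**
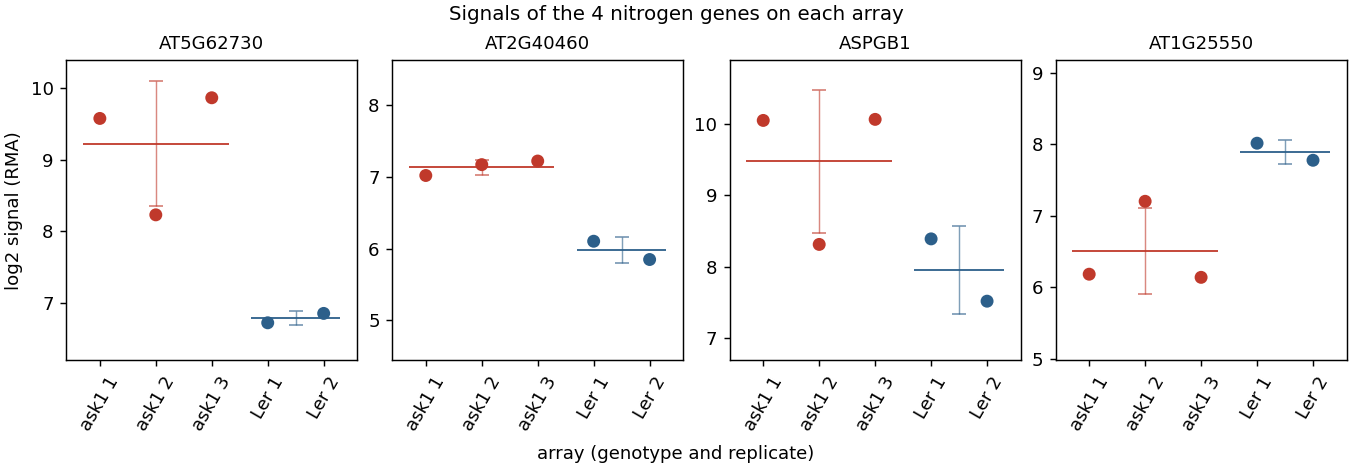
Log2 RMA signal (y axis, with the same span of log2 units in each panel) of the 4 nitrogen genes on the 3 *ask1* arrays (red) and the 2 L*er* arrays (blue). Horizontal lines are group means and bars are 1 SD. In AT5G62730, *ASPGB1* and AT1G25550, *ask1* replicate 2 lies on the L*er* side of the other *ask1* arrays, and in AT2G40460 the 3 *ask1* arrays lie together above both L*er* arrays.

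The 5 arrays were not equally far apart. Among 22746 probe sets, 24 differed by 2-fold or more between *ask1* replicates 1 and 3, whereas 510 and 543 did so between *ask1* replicate 2 and each of them, and 411 and 360 between *ask1* replicate 2 and each L*er* array. Over the named genes, *ask1* replicate 2 differed from the mean of replicates 1 and 3 by at least 1 log2 unit in 1.88% of genes. Lists of marker genes were only partly measured under a gene name. Of the late pollen list 3 of 9 genes were measured (array means between 4.57 and 4.68 in *ask1* and between 4.47 and 4.67 in L*er*), 2 of them with a mean under 5 and AT5G45880 between 5.44 and 5.96 on the 5 arrays, and leaf photosynthesis was represented by 1 of 6 genes (12.27 to 12.77 and 12.16 to 12.47). The floral organ identity list had 1 of 12 genes measured (8.08 to 8.39 and 7.87 to 8.46), meiosis 2 of 6 (5.04 to 5.45 and 5.43 to 5.75), ovule and carpel 1 of 6 (6.02 to 6.59 and 5.97 to 6.58) and phloem 1 of 4 (6.77 to 7.34 and 7.04 to 7.25). The tapetum list, 4 of 10 genes, had array means between 7.47 and 8.01 in *ask1*, 9.00 in L*er* replicate 1 and 7.68 in L*er* replicate 2. The probe set of *ASK1* carries no gene name here, so the genotype labels were not checked with it. In tissue with many cell types, fewer cells of a type and less RNA per cell cannot be told apart.

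AT5G62730, the first of the transporters, read 9.58 on *ask1* replicate 1, 8.23 on replicate 2 and 9.87 on replicate 3 on the log2 scale, against 6.72 and 6.85 on L*er* replicates 1 and 2. All 3 *ask1* arrays were above both L*er* arrays, with a gap of 1.38 between the lowest *ask1* and the highest L*er* array. The means were 9.23 ± 0.87 (SD, n = 3) and 6.79 ± 0.09 (SD, n = 2), a ratio of 5.42-fold. The size of the difference varied among the *ask1* arrays. Relative to the L*er* mean the signal was 6.92-fold in replicate 1, 2.72-fold in replicate 2 and 8.46-fold in replicate 3. Replicate 2 lay 1.49 log2 units below the mean of the other *ask1* arrays and kept 49.2% of their log2 difference from L*er*. The SD among the *ask1* arrays was larger than that of 99.2% of the named genes, while the L*er* arrays differed by 0.13.

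AT2G40460, the second transporter, gave a log2 signal of 7.02, 7.17 and 7.22 across *ask1* replicates 1 to 3, while L*er* replicates 1 and 2 gave 6.10 and 5.85. The groups were 0.92 apart at their nearest arrays. The *ask1* mean was 7.14 ± 0.11 (SD, n = 3) and the L*er* mean 5.97 ± 0.18 (SD, n = 2), which is a 2.24-fold ratio. It was the gene of the 4 in which the *ask1* arrays lay closest together, since its 3 shifts over the L*er* mean were 1.05, 1.20 and 1.25 log2 units. Replicate 2 differed from the mean of replicates 1 and 3 by 0.05, and 22.2% of the named genes had a smaller such difference. The 2 transporters thus shared a direction and differed in how *ask1* replicate 2 behaved.

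The log2 signal of *ASPGB1* was 10.05 on *ask1* replicate 1, 8.31 on replicate 2 and 10.06 on replicate 3. L*er* replicate 1 read 8.39 and L*er* replicate 2 read 7.52. The genotypes overlapped, because *ask1* replicate 2 lay 0.08 below L*er* replicate 1. *ask1* replicates 1 and 3 differed from each other by 0.01 and stood 4.26-fold and 4.31-fold over the L*er* mean. For replicate 2 the value was 1.28-fold, or 17.1% of the log2 difference of the other *ask1* arrays. The means were 9.48 ± 1.01 (SD, n = 3) and 7.96 ± 0.62 (SD, n = 2), and their ratio was 2.87-fold. Both groups were widely spread for this gene: the SD in *ask1* exceeded that of 99.4% of the named genes, and the difference of 0.87 between the L*er* arrays exceeded that of 98.6%. L*er* replicate 1, the higher of the L*er* arrays for *ASPGB1*, was also the array with the highest mean of the tapetum list, whose part in the result was not tested.

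AT1G25550 went the other way. The log2 signal was 6.18, 7.20 and 6.14 across *ask1* replicates 1 to 3, and L*er* replicates 1 and 2 read 8.01 and 7.78. All 3 *ask1* arrays were below both L*er* arrays, with 0.57 between the nearest of them. The means of 6.51 ± 0.60 (SD, n = 3) and 7.90 ± 0.17 (SD, n = 2) gave a signal 2.62-fold lower in *ask1*. The array that was nearest to L*er* was again replicate 2, which lay 1.04 above the mean of replicates 1 and 3. Replicates 1 and 3 were 3.28-fold and 3.38-fold below the L*er* mean and replicate 2 was 1.62-fold below it, which is 40.0% of their log2 difference.

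In 3 of the 4 genes the array nearest to L*er* among the *ask1* arrays was thus replicate 2, and AT2G40460 was the exception. A list of genes that rise in sugar-starved or darkened plants separated the same arrays. Of its 14 genes 4 were measured, and their mean log2 signal was 7.69 on *ask1* replicate 1, 10.89 on replicate 2 and 7.50 on replicate 3, beside 10.45 and 10.41 on the L*er* arrays. In 3 of the 4, AT1G56220, AT3G15450 and AT2G20670, *ask1* replicates 1 and 3 were below all other arrays, and the exception was *ATL8*, a RING finger gene, at 6.87, 8.13 and 7.37 in *ask1* and 7.53 and 6.76 in L*er*. The ratio of AT2G20670, the farthest from 0 in this list, was -2.85, with log2 signals of 4.81, 10.65 and 5.16 in *ask1* and of 9.61 and 9.83 in L*er*. The part of whatever sets *ask1* replicate 2 apart in the values of the nitrogen genes was not tested.

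**Figure D2:**
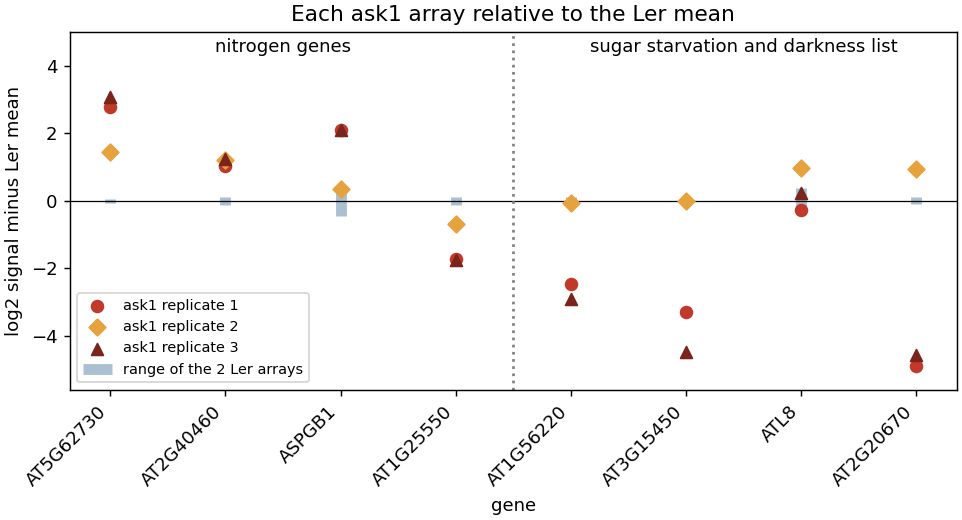
Log2 signal of each *ask1* array minus the L*er* mean (y axis) for the 4 nitrogen genes (left) and the 4 measured genes of the sugar starvation and darkness list (right). Grey-blue bars span the 2 L*er* arrays. Replicate 2 lies nearer to 0 than replicates 1 and 3 in AT5G62730, *ASPGB1* and AT1G25550 and together with them in AT2G40460.

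Leaving out single arrays moved the sizes and not the directions. The log2 ratio of AT5G62730 was lowest when *ask1* replicate 3 was omitted, at 2.12, and highest when *ask1* replicate 2 was, at 2.94. For AT2G40460 the range was 1.04 to 1.29, and both ends came from leaving out a L*er* array. *ASPGB1* fell between 1.08, with L*er* replicate 2 omitted, and 2.10, with *ask1* replicate 2 omitted. Omitting *ask1* replicate 2 also gave AT1G25550 its lowest ratio, -1.73, and its highest, -1.20, came with *ask1* replicate 3 omitted. Over all genes and unnamed probe sets, 1.65% passed at an adjusted p under 0.05 when *ask1* replicate 2 was omitted. All 4 genes stayed at least 2-fold apart in all 5 omissions. They were chosen on this ratio, and each omission reuses arrays of the full comparison, so this count is a description and no test. The share of all genes that stayed so was not counted here.

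**Figure D3:**
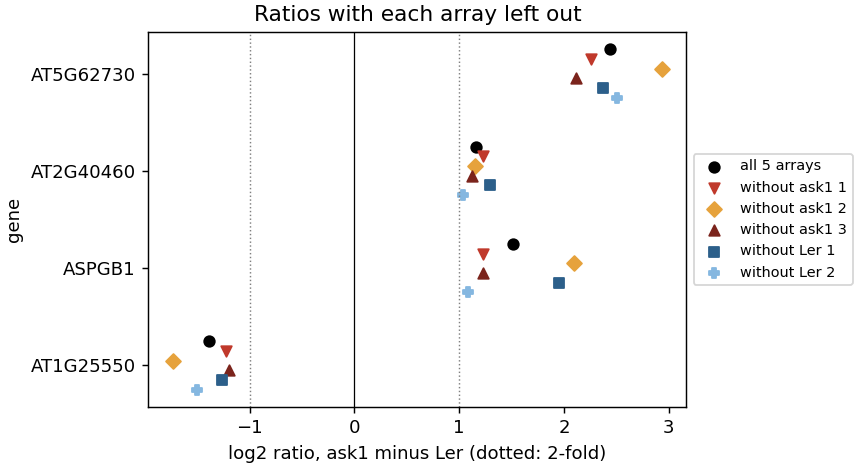
Log2 ratio of *ask1* over L*er* (x axis) for the 4 nitrogen genes with all 5 arrays and with each array left out in turn. Dotted lines mark 2-fold. Leaving out *ask1* replicate 2 gives the value farthest from 0 for AT5G62730 (2.94), *ASPGB1* (2.10) and AT1G25550 (-1.73).

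The other genes of nitrogen transport and metabolism were examined as 8 lists, which hold 182 genes besides the 4 and of which 46 were measured under a gene name. The listed *NRT1.1* (AT1G12110) was not among the 46, as it was not measured under a gene name of its own. The paper, which used more L*er* arrays, lists it as up-regulated in *ask1*. None of the 46 met the criteria of the study, which asked for a 2-fold difference together with p under 0.05 before adjustment. The p was here taken from limma, a linear model with a spread shared across genes. These criteria were met by 0.589% of all genes and unnamed probe sets, and among the 13356 named genes by 30 with higher and 15 with lower means in *ask1*. None of the 46 passed at an adjusted p under 0.05 either, which 0.0133% of all rows did (3 unnamed probe sets). An unadjusted p under 0.05 was found for 4 with higher means in *ask1* (AT3G21670, AT5G13400, AT3G45680 and *AAH*) and 0 with lower means. The methods' t-test gave 1 and 1, AT3G45680 and the dim gene AT5G19640, and 0 after adjustment. Over all genes and unnamed probe sets 6.95% had such a limma p, 3.98% with higher and 2.97% with lower means. Among the 13356 named genes alone, 394 (2.95%) had it with higher and 379 with lower means, beside 8.70% of the 46 with higher means. The groups did not overlap in 7 of the 46 with *ask1* higher and in 4 with *ask1* lower, 23.9% together. This was near the 20.9% over all genes and unnamed probe sets and the 19.8% over the named genes. The median log2 ratio of the 46 was 0.05, beside -0.01 over all. For 40 of the 46 the 95% interval of the ratio lay within 2-fold in both directions, so that a larger difference was outside the interval. The same held for 12687 of the 13356 named genes and for 21206 of all 22589 rows, a larger share than among the 46. A mean log2 signal under 5, near background, was found for 11 of them.

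Of the NRT1/PTR family, 32 of 51 further genes were measured under a gene name (*NRT1.1* was not), 23 with a ratio above 0 and 9 below. Their median was 0.05 and their ratios ranged from -0.88 to 0.97. The intervals of 29 of the 32 lay within 2-fold, a smaller share than the 12687 of 13356 over the named genes. AT5G13400, the brightest of the 32, had log2 signals of 10.11, 10.03 and 10.39 in *ask1* and of 9.65 and 9.80 in L*er*, and its ratio was 0.45 (95% interval 0.11 to 0.79, adjusted p = 0.564 from limma). AT1G68570 had signals of 9.32, 9.65 and 9.25 in *ask1* against 9.75 and 9.70 in L*er*, a ratio of -0.32 (95% interval -0.67 to 0.03, adjusted p = 0.753). The groups did not overlap in either gene, and neither passed the adjusted test. *GTR1*, a glucosinolate transporter of the family, had a ratio of 0.06 (95% interval -0.32 to 0.44), and *GTR2*, its close relative, one of 0.05 (95% interval -0.27 to 0.38).

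Besides the 2 transporters, the family members with the widest ratios were AT3G21670 and AT3G25260. Single arrays changed the size of the first ratio, while the second rested on a single array. AT3G21670 had log2 signals of 8.74, 9.54 and 8.64 in *ask1* and of 8.46 and 7.55 in L*er*. Its groups did not overlap, and its ratio was 0.97 (95% interval 0.07 to 1.86, adjusted p = 0.677 from limma), and it moved to 0.51 when L*er* replicate 2 was omitted and to 1.43 when L*er* replicate 1 was. In this gene *ask1* replicate 2 was the highest array, unlike in AT5G62730, where it was the lowest of the *ask1* arrays. AT3G25260 had signals of 6.49, 6.17 and 6.44 in *ask1* and of 8.10 and 6.39 in L*er*, so that L*er* replicate 1 stood apart from all other arrays. Its ratio was -0.88 with both L*er* arrays (95% interval -2.02 to 0.27, adjusted p = 0.809) and -0.02 without L*er* replicate 1. That array also had the highest mean of the tapetum list, whose part in the value of AT3G25260 was not tested. AT3G45680, with 6.80, 6.59 and 6.80 against 6.29 and 6.29, had the smallest adjusted p of the family list, 0.446 from limma. Its ratio was 0.44, and between 0.40 and 0.51 with single arrays omitted.

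**Figure D4:**
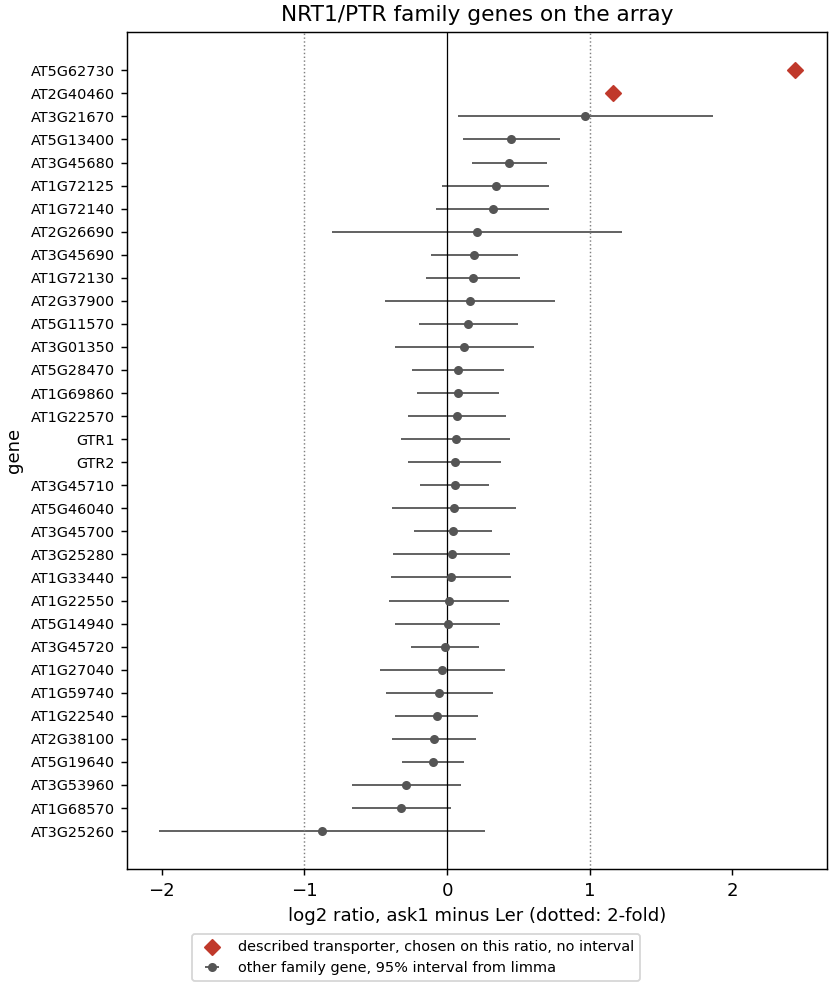
Log2 ratio of *ask1* over L*er* (x axis) for the 34 measured genes of the NRT1/PTR family (y axis). Circles are the 32 genes not chosen on this ratio, with their 95% interval from limma, and diamonds are AT5G62730 and AT2G40460, chosen on it and shown without an interval. Dotted lines mark 2-fold, which none of the 32 ratios reached.

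Few genes of the other routes of nitrogen were measured under a gene name, since 8730 of the 22746 probe sets carry none here. Of the 15 genes listed under other nitrate transporters and channels, 2 were named on the array. These were AT4G24730, whose own function was not examined here, with a ratio of -0.13, and *NRT2.5*, a high-affinity nitrate transporter, with 0.12 at signals under 5 on all arrays. The place of AT4G24730 in this list was thus not checked, and the 2 genes do not stand for the list as a whole. The list of nitrate and nitrite reduction had 1 of 14 genes named (AT2G43760, -0.06), which does not stand for the reduction step as a whole. That of amino acid transporters had 1 of 29 (AT1G08230, 0.11). None of the 18 genes of ammonium uptake and assimilation was measured under a gene name.

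The asparagine and aspartate list had 1 measured gene besides *ASPGB1*. This was *ASPGA1*, which encodes the other asparaginase subtype of Arabidopsis. Its log2 signals were 9.44, 9.62 and 9.67 in *ask1* and 9.83 and 9.78 in L*er*. They were lower in all 3 *ask1* arrays than in both L*er* arrays, by a ratio of -0.22 (95% interval -0.49 to 0.04, adjusted p = 0.782 from limma). The 3 *ask1* arrays of *ASPGA1* lay within an SD of 0.12, against 1.01 for *ASPGB1*, and replicate 2 differed from the mean of replicates 1 and 3 by 0.07. The difference between the 2 asparaginase genes in their response was not tested, since *ASPGB1* was chosen on this ratio.

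Of 35 further regulators of nitrate responses 5 were measured, 1 above 0 and 4 below, with a median of -0.21 and a range of -0.71 to 0.01. AT1G68670 had log2 signals of 8.24, 9.28 and 8.34 in *ask1* and of 9.11 and 9.54 in L*er*, a ratio of -0.71 (95% interval -1.53 to 0.11, adjusted p = 0.777 from limma). Without *ask1* replicate 2 its ratio was -1.04. AT4G37180 had signals of 7.13, 8.28 and 7.13 against 7.91 and 7.78, a ratio of -0.33 (95% interval -1.21 to 0.56, adjusted p = 0.949), which moved to -0.71 when *ask1* replicate 2 was omitted, to -0.14 when replicate 1 was and to -0.13 when replicate 3 was. In both genes *ask1* replicates 1 and 3 were below the L*er* arrays and replicate 2 was not, whereas in AT1G25550 replicate 2 was also below them. AT3G60320, the brightest of the list, had signals of 9.81, 9.82 and 9.84 in *ask1* and of 10.18 and 9.90 in L*er*, a ratio of -0.21 (95% interval -0.49 to 0.07), or -0.07 when L*er* replicate 1 was omitted and -0.35 when L*er* replicate 2 was.

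**Figure D5:**
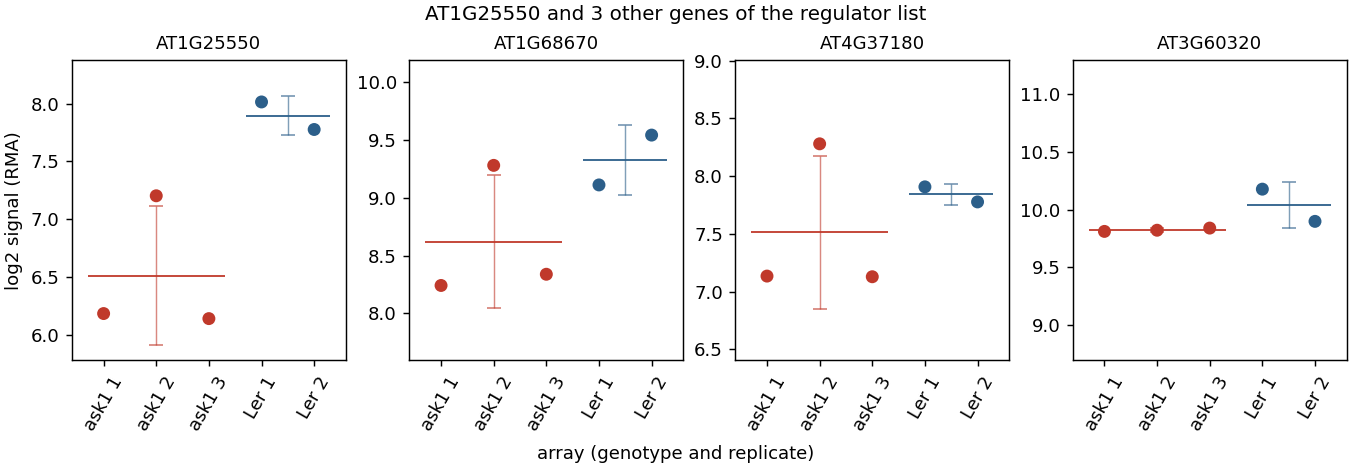
Log2 RMA signal (y axis, with the same span of log2 units in each panel) of AT1G25550 and of the 3 other brightest genes of the regulator list on the 3 *ask1* (red) and 2 L*er* (blue) arrays, with group means and 1 SD. In AT1G25550, AT1G68670 and AT4G37180, *ask1* replicate 2 lies above the other *ask1* arrays, and in AT3G60320 the 3 *ask1* arrays are between 9.81 and 9.84.

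The list of urea, ureide and arginine nitrogen had 4 of 11 genes measured, 3 above 0 and 1 below, with a median of 0.23. These counts and the median include *PPDK*, for pyruvate orthophosphate dikinase, which is not an enzyme of this route. Its ratio was 0.38 (95% interval -0.17 to 0.94). *AAH* encodes allantoate amidohydrolase, which releases ammonium from a breakdown product of purines. Its log2 signals were 6.59, 6.97 and 6.41 in *ask1* and 6.11 and 5.80 in L*er*, a ratio of 0.70 (95% interval 0.23 to 1.17, adjusted p = 0.494 from limma), and the groups did not overlap. *ALN*, for allantoinase, the step before it, had a ratio of -0.12 (95% interval -0.70 to 0.46), and *URE*, for urease, one of 0.08 (95% interval -0.22 to 0.38).

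For each of the 4 genes the named genes with the most similar pattern were ranked by Pearson's r of the log2 signal over the 5 arrays, among 624 genes that varied by at least 1 log2 unit. With 5 arrays from 2 genotypes these values describe the arrays and carry no test. For AT5G62730 the highest were AT4G26790 (0.994), AT4G19430 (0.989), AT3G09440 (0.986), AT4G24140 (0.983) and AT3G14200 (0.983), and 29 genes in all had an r above 0.95. Among the 5 named, AT3G09440 is an HSP70 heat shock protein gene and AT3G14200 encodes a protein with a DnaJ cochaperone domain. AT4G19430 had log2 signals of 10.74, 9.30 and 10.74 in *ask1* and of 8.27 and 7.93 in L*er*, with *ask1* replicate 2 between the L*er* arrays and the other *ask1* arrays as in AT5G62730. AT2G40460 was closest to AT5G15950 (0.993), an S-adenosylmethionine decarboxylase gene of polyamine synthesis, then to AT5G55620 (0.990), *HYH* (0.982), a bZIP factor of light signaling, AT4G03156 (0.982) and AT3G17130 (0.978). The signals of AT5G15950 were 10.28, 10.53 and 10.47 in *ask1* and 8.75 and 7.95 in L*er*, so its *ask1* arrays also lay close together.

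*ASPGB1* was closest to AT5G48570 (0.996), an FKBP-type cochaperone gene, *CHIL* (0.991), a chalcone isomerase-like gene of flavonoid synthesis, AT5G51440 (0.990), a small heat shock protein gene, *Hop3* (0.986), a cochaperone gene, and AT1G80130 (0.984). AT5G48570 had log2 signals of 7.93, 6.34 and 7.83 in *ask1* and of 6.38 and 5.36 in L*er*. As in *ASPGB1*, *ask1* replicate 2 lay between the L*er* arrays. The genes closest to AT1G25550 were AT1G25275 (0.983), AT1G73920 (0.978), AT1G56720 (0.974), AT5G60400 (0.973) and AT4G01460 (0.960), all with lower means in *ask1*, by ratios from -0.71 to -1.10. AT1G25275 had signals of 9.09, 10.09 and 8.81 in *ask1* and of 10.51 and 10.35 in L*er*. The number of genes with an r above 0.95 was 15 for AT2G40460, 19 for *ASPGB1* and 13 for AT1G25550.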

How the data were processed

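RNA of 3 *ask1* and 2 L*er* bud samples was measured on Affymetrix ATH1 arrays. The authors deposited log2 signals made with RMA, which removes background, forces all arrays to 1 distribution of probe signals and combines the probes of each set. Ratios of dim probe sets are compressed by it. Array medians were 7.07 to 7.18, and between 22.8% and 24.5% of probe sets had a signal under 5. The number of arrays limits the precision. The labels call the samples biological replicates. The RMA version is not given in the sources used here, and the further L*er* arrays of the study were not analysed here.

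Of 22746 probe sets, 13513 are paired with 1 gene, 503 with several and 8730 with none. Each gene took the values of its brightest probe set among those paired with it alone, giving 13356 genes and 22589 rows with the remaining probe sets. The test was limma (version 3.58.1, R 4.3.3), with lmFit and eBayes, 2-sided and without a block, and p-values were adjusted over all rows by Benjamini-Hochberg. It was tested on simulated data with independent noise of 1 size in all rows and arrays. The real arrays were not equally far apart, so this checked the working of the code and not how well the test suits these data. The members and lists were chosen with earlier results of these data known. Named were the 4 genes, in each list up to 4 genes past the study's criteria and the 3 brightest not past them, and the 5 genes most like each of the 4. AT3G21670, AT3G25260, AT3G45680, AT5G19640, *GTR2*, and the sugar starvation and tapetum values were picked with their values in view. *PPDK* was named because its enzyme lies outside the title of its list. The alternatives were a replicate block, omission of each array, array weights, limma-trend, the methods' t-test, quantile normalization, median centring, leaving out dim rows, other probe set rules and averaging *ask1* replicates 1 and 3. Promoter sequences were not analysed here.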

Additional observations from a re-analysis of the deposited data

How the results depend on the processing

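The 4 nitrogen genes kept their direction and stayed within 1 SD of their ratio in 48 of 48 values under the alternatives. Some of these values could not differ. Each gene has 1 probe set, so the probe set rules left its ratio unchanged, and the block repeated the omission of *ask1* replicate 3. The SD was each gene's own, pooled over the genotypes (0.89 for *ASPGB1*), so even *ASPGB1* ratios from 1.08 to 2.10 counted as within it. Omitting 1 *ask1* array, or averaging *ask1* replicates 1 and 3, moves a ratio by less than this SD whatever the signals are. The count of 48 is therefore no measure of stability, also because the genes were chosen on this ratio. The adjusted p under 0.05 was met by 3 of the 22589 genes and unnamed probe sets, by 0 with the methods' t-test, by 1 with quantile normalization, by 0 with *ask1* replicates 1 and 3 averaged, and by 0 to 373 with 1 array left out. Omitting *ask1* replicate 2 gave 373, *ask1* replicate 3 gave 1, L*er* replicate 2 gave 5, and *ask1* replicate 1 or L*er* replicate 1 gave 0. The cause was not tested. Of the 46 nitrogen genes outside the 4, 0 met the study's criteria, and 0 to 1 with 1 array left out: AT1G68670 (lower) without *ask1* replicate 2, AT3G21670 (higher) without *ask1* replicate 3 or L*er* replicate 1, and AT3G25260 (lower) without L*er* replicate 2. AT3G21670 was also the 1 gene that met them with *ask1* replicates 1 and 3 averaged. With the replicate number as a block it was again 1 gene, AT3G21670, and 2 rows passed the adjusted test. That fit leaves out *ask1* replicate 3, which has no partner. Deviations from the group means correlated at -0.26 for replicate 1 and -0.01 for replicate 2. The deviations of the 2 L*er* arrays mirror each other, so these values are not independent and cannot decide whether the replicates were paired. With that block the ratios of the 4 genes were 2.12, 1.12, 1.22 and -1.20 in the order AT5G62730, AT2G40460, *ASPGB1* and AT1G25550. Dim signals limit 11 of the 46 genes.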

Other observations

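The chromosomal neighbours of the 4 nitrogen genes were looked up in the gene order of TAIR10.1, 5 protein-coding genes to each side. Of these 40 positions 21 had a gene named on the array. Their log2 ratios of *ask1* over L*er* ranged from -0.24 to 0.51, and 0 met the criteria of the study. *GTR2*, a further NRT1/PTR gene, lies 5 genes before AT5G62730 and had a ratio of 0.05. The neighbour with the widest ratio, 0.51, was AT1G25530, 2 genes before AT1G25550.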
